A study of Mus musculus with 12 samples.

Results

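The genes described here carry out glycolysis, the splitting of glucose to pyruvate, and the storage and release of glycogen, the glucose polymer that muscle keeps for contraction. They were taken by gene symbol from a list of 46 symbols of glycolytic enzymes, of enzymes that set fructose phosphate and glycerol phosphate levels, and of enzymes and scaffold proteins that build and break glycogen. Of these, 39 were found among the 10187 genes measured in triceps brachii, a muscle that extends the elbow, from 12 C57/BL6 males. Aldoc, Pgam1, Eno1, Eno2, Pygl, Pkm and Pgm1 were not found by symbol and were not analysed here, although Pkm2 of the table is the gene later named Pkm, and Pgm2 of the table, at chr4:99602019-99659899 (plus strand), is the phosphoglucomutase gene that later annotation names Pgm1. Positions are 1-based and refer to build NCBIM37, the same as mm9.

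The mice fell into 4 groups of 3. IW stands for inactive wild-type, AW for active wild-type, IM for inactive myostatin-reduced and AM for active myostatin-reduced mice. Myostatin, encoded by Mstn, is a secreted protein that limits muscle growth. Myostatin-reduced mice carried a floxed exon 3 of Mstn that Cre recombinase removed, and the promoter driving Cre was not given in the sources used here. Mice of all 4 groups had eaten chow with 0.025% (w/w) tamoxifen for 6 weeks, the drug that switches this Cre on, so that wild-type mice shared this exposure. Active mice were moved at 6 months of age to single cages with a free running wheel for 12 weeks. Before the trial mice shared cages, and the paper describes neither a move nor a wheel for inactive mice. Running and single housing therefore cannot be told apart. Values are normalized read counts, read counts per gene scaled by the authors to an equal trimmed mean and not divided by gene length.

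The summed value of a mouse was between 927958 and 1080139, and the depth estimated from the value of 1 read was 9023735 to 12184402 reads, so that 3 reads were worth 0.231 to 0.316. Mstn was lower in every myostatin-reduced mouse (8.70 to 21.6) than in every wild-type mouse (79.7 to 138), a log2 change of -2.66 (SE 0.16, adjusted p = 1.29e-06). In each library fast-fibre markers exceeded slow-fibre markers, with 12 of 12 genes found and a sum of 162254 to 244082, while the sum of 11 slow-fibre markers ranged from 78.3 to 1831. Slow-fibre sums differed within groups, at 151 in AW mouse 1 against 1638 and 1831 in the other AW mice, 117 in AM mouse 3 against 641 and 1343 in the other AM mice, and 1370 in IW mouse 1 against 94.3 and 312 in the other IW mice. Sums over markers of fibroblasts were 431 to 672, of macrophages 39.8 to 64.7 and of Schwann cells 22.6 to 75.3.

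Glucose enters the pathway as glucose 6-phosphate, which is either split through the 3-carbon phosphates to pyruvate or turned into glucose 1-phosphate and then UDP-glucose, the building block of glycogen. Glycogen is broken down by glycogen phosphorylase, which phosphorylase kinase switches on when calcium and adrenaline signal work. Fast-twitch fibres, the main fibres of mouse triceps, rely on this pathway more than slow fibres do, and patients who lack muscle phosphorylase or muscle phosphofructokinase cannot sustain hard exercise.

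Levels of the members differed by several orders of magnitude, and together they made up 4.97% to 6.28% of the summed value of a mouse. Expressed per kb of the longest coding transcript, so that genes of different length can be set beside each other, the mean level over the 12 mice was highest for Aldoa, muscle aldolase, with 10793 normalized reads per kb. Next came Eno3, muscle enolase, with 4109.9, and Pygm, muscle glycogen phosphorylase, with 3782. Pgam2, muscle phosphoglycerate mutase, had 1892, Pfkm, muscle phosphofructokinase, 1718, and Pkm2, pyruvate kinase, 1263 normalized reads per kb. Enzymes of glycogen synthesis were lower on this scale, with 345 for Ugp2, which makes UDP-glucose, 260.0 for Gyg, the glycogenin core on which a granule starts, 190.2 for Gys1, muscle glycogen synthase, and 22.5 for Gbe1, the branching enzyme. Pfkm exceeded Pfkl, the liver form (3.05), and Pfkp, the platelet form (1.38). Pygm likewise exceeded Pygb, the brain form (1.31). Of the phosphorylase kinase subunits, Phka1 (195) and Phkg1 (206), the muscle forms, stood above Phka2 (1.91) and Phkg2 (2.32), the liver forms. In other families the order was different, with Pfkfb3, the inducible form, at 83.8 against 28.6 for Pfkfb1, the liver and muscle form, and Ppp1r3c at 259 against 87.9 for Ppp1r3a, the muscle targeting subunit of protein phosphatase 1.

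Gapdh and Pgk1, which encode the enzymes on either side of 1,3-bisphosphoglycerate, had only 39.99 and 26.5 normalized reads per kb, far below the enzymes before and after them in the pathway. Both genes have near-identical copies, among them processed pseudogenes. Reads were 65 bases long, and of the 65-base windows in the longest coding transcript of Gapdh, 85.5% also occurred without a mismatch elsewhere in the mm9 genome, in up to 54 places. In Pgk1 the share was 92.0%, in up to 3 places. The window of Gapdh with the most copies, coding bases 407 to 471 counted from the first base of the start codon, is shown because a read from it cannot be placed at a single locus.
Gapdh: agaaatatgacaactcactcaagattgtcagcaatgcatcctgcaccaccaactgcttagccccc
The share was 29.6% for Pkm2, 22.3% for Gpi1, 15.6% for Tpi1, 5.19% for Aldoa, 4.94% for Phkg1, 1.122% for Gyg and less for every other member. How the authors' counting treated reads that map to several places was not given in the sources used here, so the levels and changes of Gapdh and Pgk1 are uncertain, and those of Pkm2, Gpi1 and Tpi1 less so.

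**Figure D1:**
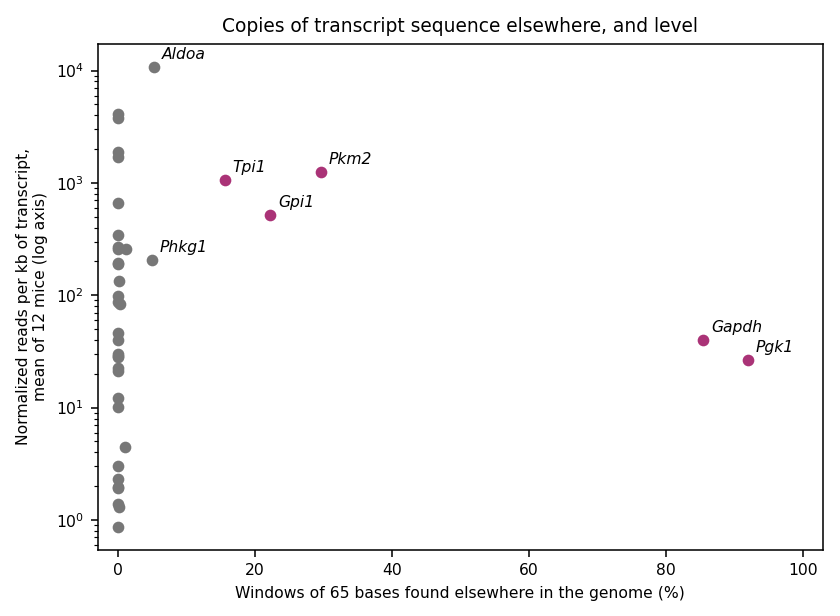
Percentage of 65-base transcript windows that occur elsewhere in the genome (x axis) against mean normalized reads per kb over 12 mice (y axis, log scale), 1 point per member, with purple points for members above 10%. Gapdh (85.5%) and Pgk1 (92.0%) lie far to the right and at 39.99 and 26.5 normalized reads per kb, below Aldoa at 10793.

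A mean of at least 10 normalized reads was needed for a gene to be tested, which 33 of the 39 members and 7247 of all genes reached. Hk1 (mean 8.48 over 12 mice), Pfkp (5.72), Pygb (5.13), Phka2 (8.29), Phkg2 (4.27) and Ppp1r3d (2.84) did not, and in none of the 12 mice did any of these exceed 12.3. Among tested members the highest mouse exceeded the lowest by the largest factor in Pfkfb3, 5.28, and by the smallest in Gyg and Pgam2, 1.20 in both.

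**Figure D2:**
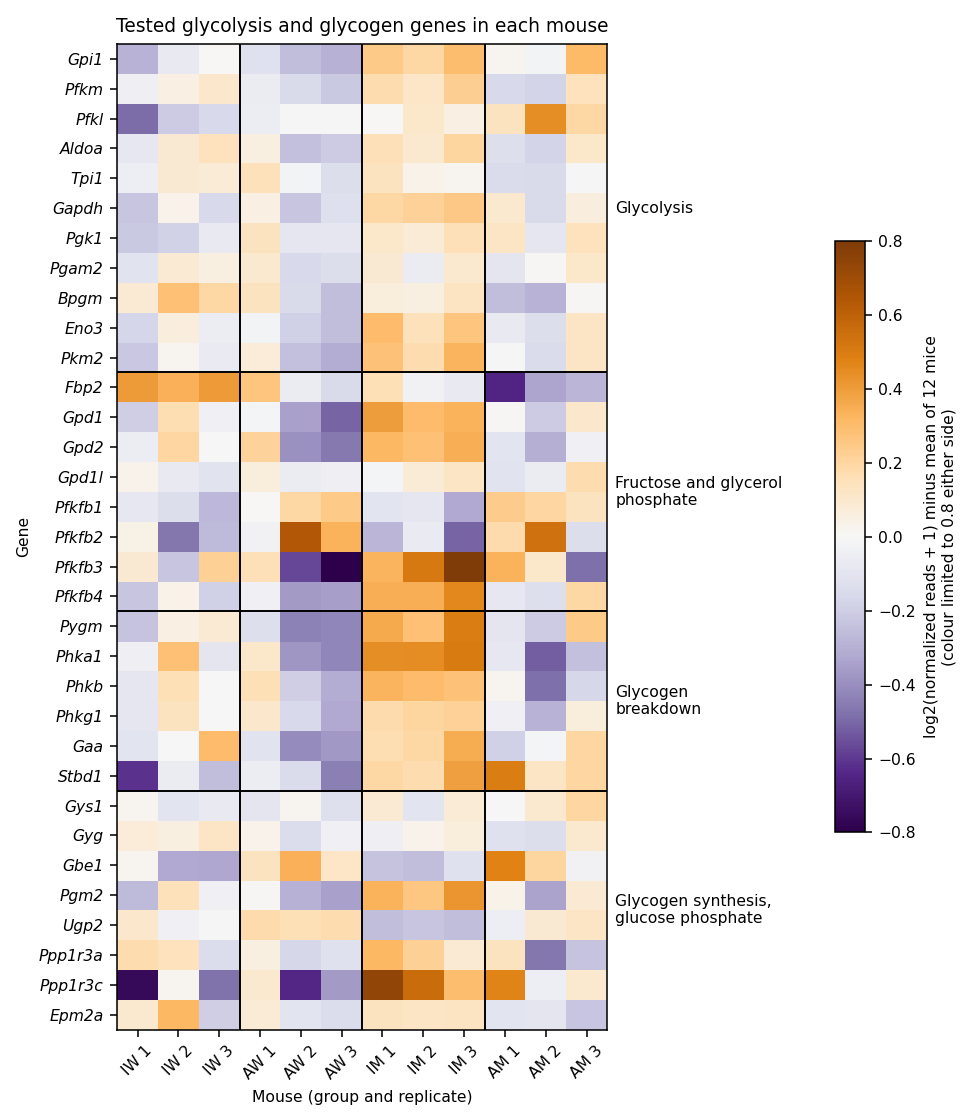
Colour gives log2(normalized reads + 1) of each mouse minus the mean of the 12 mice, for the 33 tested members (rows, in 4 blocks by role) and the 12 mice (columns, in 4 groups), with orange above and purple below the mean. The 3 IM columns are orange for most genes, and AW mice 2 and 3 are mostly purple. Fbp2, Pfkfb1, Pfkfb2, Gbe1 and Ugp2 follow patterns of their own.

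The first question was how the pathway differed between active and inactive mice of either genotype. In active mice, 4 of 6 genes that break glycogen down were lower, Phka1, Phkb, Pygm and Gaa, and Ugp2 and Gbe1, which make UDP-glucose and branch the polymer, were higher. With values scaled to equal sums in place of the authors' trimmed mean, 2 of the 6 breakdown genes, Phka1 and Pygm, were called. Phka1 fell by 29.9% and Pygm fell by 21.5%, whereas Gbe1 was 33.2% higher and Ugp2 17.0% higher on the log2(value + 1) scale. Of the 33 tested members, 13 passed the test (limma, Benjamini-Hochberg adjusted p under 0.05 over all 7247 genes), 4 higher and 9 lower, or 39.4%, against 14.5% of all genes. The background by direction was 7.99% of all genes higher and 6.51% lower. The median log2 change was -0.19 over the members and -0.022 over all genes, and 25 of 33 members had a negative change. At an unadjusted p under 0.05 there were 23 members, against 30.2% of all genes.

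By role, 4 of 6 glycogen breakdown genes fell and none rose, with a median log2 change of -0.31. Of the 8 genes of glycogen synthesis and glucose phosphate interconversion, 2 rose and none fell, with a median of -0.12. Of 11 glycolytic enzymes 1 passed the test, Bpgm, which was lower, with a median of -0.12 over the list. With equal sums Bpgm was not called (adjusted p = 0.0660), and Pfkl and Pgk1 were called higher, by 0.33 (adjusted p = 0.0185) and 0.15 (adjusted p = 0.0472). With limma's weights on mice, which count a mouse that departs from its group for less, Aldoa, Eno3, Pkm2 and Pfkm were called lower (adjusted p = 0.0453, 0.0379, 0.0467 and 0.0246). Among the 8 genes of fructose phosphate control and glycerol phosphate, 2 rose and 4 fell, with a median of -0.29. Whether these roles differed from each other was not tested.

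Fibre markers were set beside these differences. The summed fast-fibre level was 192928 to 223500 in IW, 162254 to 197234 in AW, 234252 to 244082 in IM and 170081 to 214916 in AM mice. Slow-fibre sums were 94.3 to 1370 in IW, 151 to 1831 in AW, 78.3 to 112 in IM and 117 to 1343 in AM mice, with Myh7, the slow myosin, between 1.29 and 498 over all mice. Myh4, the fast myosin of the most glycolytic fibres, changed with activity by -0.57 (SE 0.13, adjusted p = 0.0127) on the log2 scale. Myh7 changed by 2.68 (SE 1.38, adjusted p = 0.211) and did not pass the test, and the slow-fibre sums overlapped between active and inactive mice. With the log2 level of Myh4 added to the model, an alternative chosen after seeing the data, 0 members and 3 of all 7247 genes were called for activity. Among the 13 members called without it, the change stayed near its size in Ugp2 (0.20, adjusted p = 0.344), shrank with its direction kept in Fbp2 (-0.23), Gbe1 (0.20), Pfkfb1 (0.20), Gaa (-0.070) and Phka1 (-0.041), and turned sign in Pygm (0.063), Phkb (0.093), Bpgm (0.086), Gpd1 (0.13), Gpd2 (0.14), Pfkfb4 (0.11) and Pfkfb2 (-0.16). With a slow-fibre score added 3 members were called, Ugp2, Phka1 and Pfkfb1, 9.09% against 5.53% of all genes. Since Myh4 itself differed between active and inactive mice, this model cannot fully separate Myh4 from activity. Endothelial markers (6 of 6 found) summed to 258 to 328 in IW, 260.2 to 449 in AW, 234 to 241 in IM and 303 to 497 in AM mice, and adipocyte markers (5 of 6 found) to 124 to 178, 159.6 to 226, 105 to 131 and 135 to 229.8, and their part in the activity differences was not tested. In whole muscle, fewer fibres of a type and less RNA per fibre cannot be told apart.

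Single mice also weighed on the count of 13. It was 5 without IW mouse 2, AW mouse 2, AW mouse 3, IM mouse 1, IM mouse 3 or AM mouse 2, 6 without IW mouse 3 or IM mouse 2, and 20 without AW mouse 1. The share of all genes called in fits without a mouse is not given here, for this or the other contrasts. Such counts therefore do not show whether the members moved more than other genes. Ugp2, Fbp2, Gbe1, Phka1 and Pfkfb1 were called in each of the 12 fits that left out a mouse, and the other 8 called members in 3 to 5 of them. When values were scaled to equal sums in place of the authors' trimmed mean, which moved the median of all genes up by 0.10 on the log2 scale, 9 members were called, 6 higher and 3 lower, and 7 of these were among the 13. Under that scaling 19.4% of all genes were called higher and 1.98% lower. Bpgm, Phkb, Gaa, Pfkfb4, Gpd1 and Gpd2 were not called with equal sums.

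**Figure D3:**
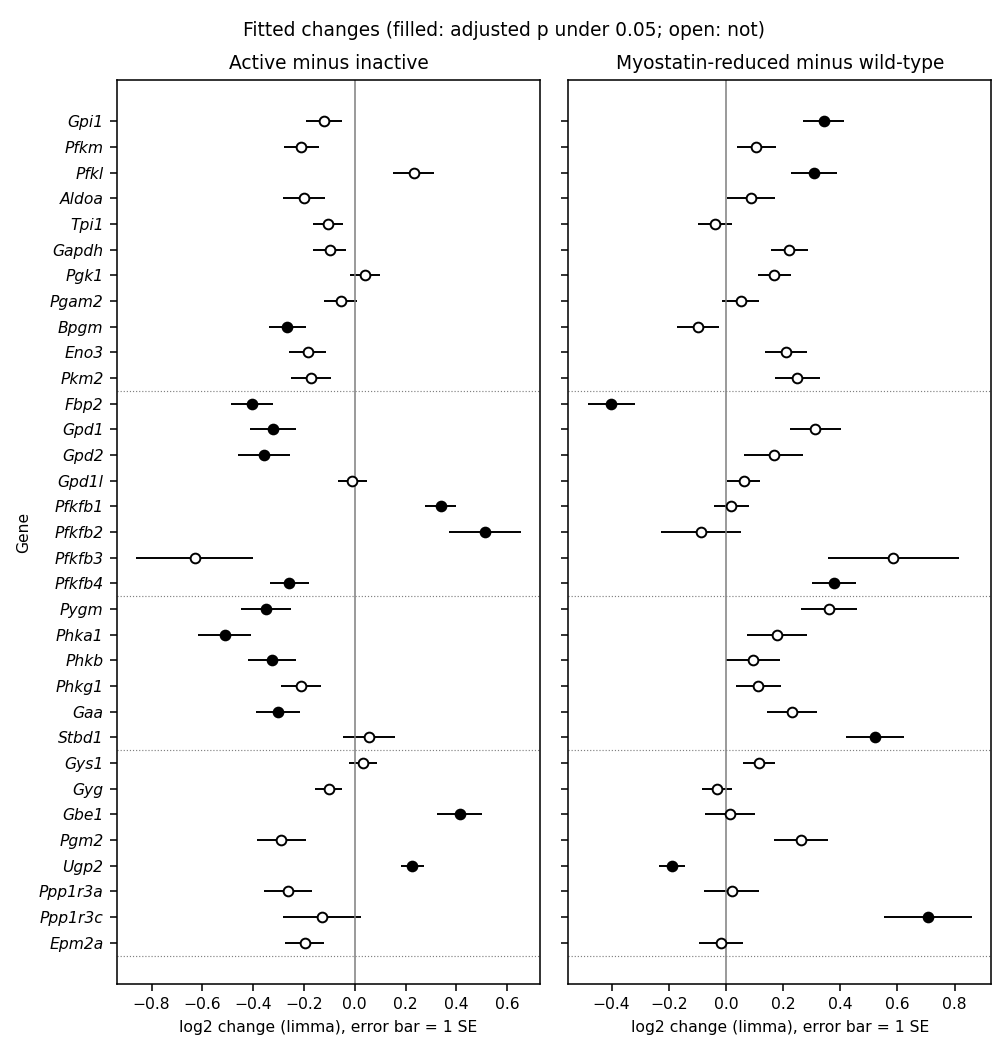
Fitted log2 change (x axis) of the 33 tested members, active minus inactive on the left and myostatin-reduced minus wild-type on the right, with bars of 1 standard error, n = 12 mice, and dotted lines between glycolysis, fructose and glycerol phosphate, glycogen breakdown and glycogen synthesis from top to bottom. Filled points passed an adjusted p of 0.05, 13 on the left and 7 on the right. Most points lie left of 0 for activity and right of 0 for genotype.

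Among the breakdown genes, Phka1, which encodes the muscle regulatory alpha subunit of phosphorylase kinase and lies at chrX:99709314-99839585 (minus strand), had 1126, 1409.9 and 1084 normalized reads in IW mice 1, 2 and 3. The AW mice had 1249, 892 and 864, the IM mice 1572, 1577 and 1639 and the AM mice 1094, 806 and 977. The 3 IM mice lay above all others, and the 3 AM mice lay below all IM mice. Its log2 change with activity was -0.51 (SE 0.10, adjusted p = 0.00829) and with genotype 0.18 (SE 0.10, adjusted p = 0.342).

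Phkb, the beta subunit of the same kinase, had 664, 789 and 705 normalized reads in IW, 789, 617 and 570.3 in AW, 886, 874 and 859 in IM and 718, 506 and 630.0 in AM mice. AM mouse 2 was the lowest and the IM mice the highest. The activity change was -0.32 (SE 0.094, adjusted p = 0.0378), and with equal sums -0.22 (adjusted p = 0.0717), and it turned to 0.093 (adjusted p = 0.762) with Myh4 in the model. Phkg1, the catalytic subunit of muscle, ranged from 388 to 564 and did not pass the test, with an activity change of -0.21 (adjusted p = 0.0927).

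Pygm, which lies at chr19:6384399-6398459 (plus strand) and encodes the enzyme that releases glucose 1-phosphate from glycogen, had 9067, 11019 and 11305 normalized reads in IW mice. The values were 9747, 7881 and 7946 in AW, 13677, 12976 and 15028 in IM and 9961, 9207 and 12625 in AM mice. Every IM mouse exceeded every other mouse, and AW mice 2 and 3 were the lowest. Pygm fell with activity by 0.35 on the log2 scale (SE 0.099, adjusted p = 0.0345), a change that turned to 0.063 (adjusted p = 0.828) with Myh4 in the model. Its genotype change of 0.36 (SE 0.099, adjusted p = 0.0520) missed the threshold, and it passed with median-of-ratios scaling, with equal sums, with weights on mice and with a slow-fibre score in the model (adjusted p = 0.0432, 0.0390, 0.0208 and 0.0375).

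Gaa, the lysosomal acid glucosidase that clears glycogen from lysosomes, had 327, 351 and 434 normalized reads in IW, 326, 264 and 272 in AW, 395, 402 and 449 in IM and 308, 348 and 403 in AM mice. AW mice were all below IW mice, while AM mouse 3 lay inside the IM range. Its activity change was -0.30 (SE 0.087, adjusted p = 0.0374), or -0.19 with equal sums (adjusted p = 0.0919), and its genotype change 0.23 (adjusted p = 0.137) did not pass.

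Stbd1, a protein that ties glycogen to membranes and lies at chr5:93032077-93035605 (plus strand), was called for genotype and not for activity. It had 35.8, 53.0 and 46.3 normalized reads in IW mice, 53.2, 49.8 and 40.6 in AW, 63.1, 62.4 and 72.9 in IM and 78.3, 60.3 and 63.5 in AM mice. All 6 myostatin-reduced mice were above all 6 wild-type mice. The genotype change was 0.52 (SE 0.10, adjusted p = 0.0133), or 1.44-fold, and it was called in each of the 12 fits without a mouse but not with Myh4 in the model (0.39, adjusted p = 0.0549). With activity Stbd1 changed by 0.057 (adjusted p = 0.739).

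On the side of glycogen synthesis, Ugp2, at chr11:21221141-21271204 (minus strand), had 988, 896 and 913 normalized reads in IW, 1039, 1028 and 1037 in AW, 772, 784 and 771 in IM and 891, 979.8 and 1001 in AM mice. The IM mice were the 3 lowest and the AW mice the 3 highest. Ugp2 rose with activity by 0.23 (SE 0.046, adjusted p = 0.00809) and fell with myostatin reduction by 0.19 (SE 0.046, adjusted p = 0.0345). The activity call was kept in each of the 12 fits without a mouse and the genotype call in 5. With Myh4 in the model neither was called, at 0.20 (adjusted p = 0.344) and -0.18 (adjusted p = 0.0553), and with the replicate block the genotype change was the same -0.19 but not called (adjusted p = 0.0567). By group mean, Pygm was highest in IM and lowest in AW mice, and Ugp2 the reverse.

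Gbe1, which adds the branches that make glycogen soluble and lies at chr16:70314194-70569961 (plus strand), had 74.1, 58.5 and 58.2 normalized reads in IW and 80.4, 93.2 and 79.6 in AW mice, with no overlap. IM mice had 62.1, 61.3 and 67.5 and AM mice 102, 84.4 and 71.8, again with no overlap. Only IW mouse 1 exceeded an active mouse, AM mouse 3. The activity change was 0.41 (SE 0.089, adjusted p = 0.0104) and the genotype change 0.014 (adjusted p = 0.944), which turned to -0.047 with equal sums.

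Gys1, the enzyme that lengthens the polymer, had 708, 650.4 and 663 normalized reads in IW, 652, 708 and 643 in AW, 739, 648 and 736 in IM and 697, 747 and 801 in AM mice. The groups overlapped throughout, with changes of 0.034 (SE 0.055, adjusted p = 0.709) for activity and 0.12 (SE 0.055, adjusted p = 0.235) for genotype. Gyg ranged only from 455 to 547.

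Ppp1r3c, which brings protein phosphatase 1 to glycogen so that synthase is switched on and phosphorylase off, lies at chr19:36806227-36811143 (minus strand). It had 396, 682 and 482 normalized reads in IW, 718, 429.6 and 520.1 in AW, 1123, 989 and 825 in IM and 932, 651 and 717 in AM mice. All IM mice were above all wild-type mice, whereas AM mice 2 and 3 overlapped AW mouse 1. Its genotype change of 0.71 (SE 0.15, adjusted p = 0.0203), 1.63-fold, was the largest genotype change among called members, and it was called in 8 of the 12 fits without a mouse and not with Myh4 in the model (0.49, adjusted p = 0.0771). Ppp1r3a ranged from 448 to 769, with an activity change of -0.26 (adjusted p = 0.0830).

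Pgm2, which interconverts glucose 1-phosphate and glucose 6-phosphate and so serves both directions, ranged from 1305 to 2223. Its changes were -0.29 (adjusted p = 0.0598) for activity and 0.26 (adjusted p = 0.126) for genotype, neither past the threshold. Epm2a, laforin, which removes phosphate from glycogen, ranged from 33.8 to 49.5, with an activity change of -0.20 (adjusted p = 0.106).

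**Figure D4:**
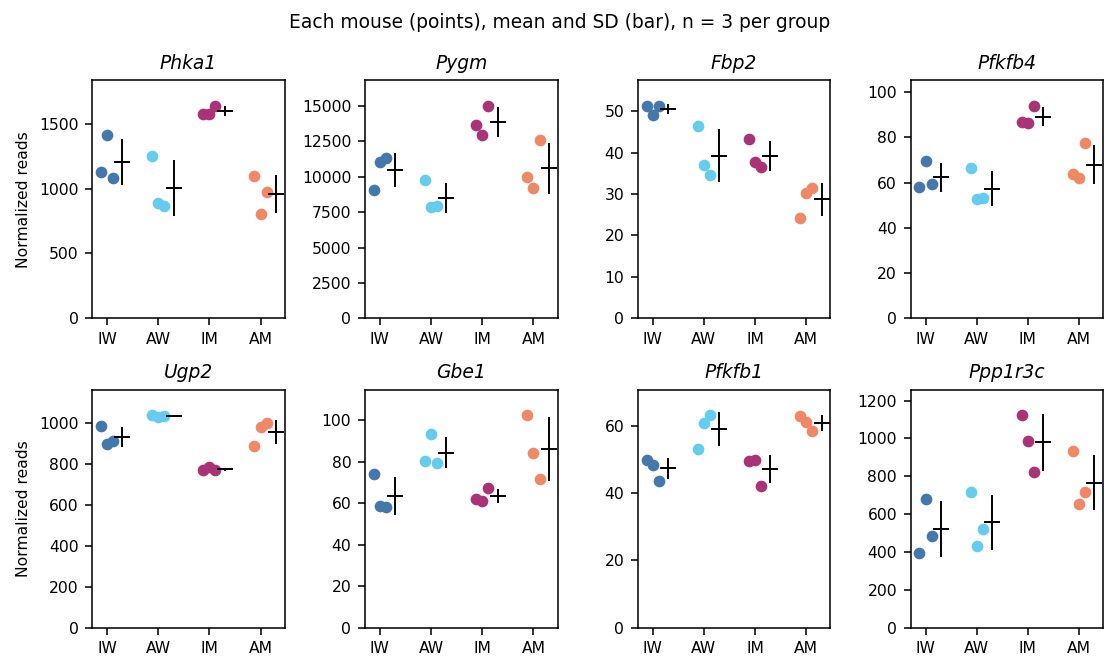
Normalized reads (y axes, from 0) of 8 called members in each of the 12 mice (points), with the mean and SD of each group of 3 beside them. Phka1, Pygm and Pfkfb4 were highest in IM mice, Fbp2 was lowest in AM mice, Ugp2 was lowest in IM mice, and Gbe1 and Pfkfb1 were higher in both active groups.

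Along glycolysis, 1 of 11 enzymes (9.09%) passed the test for activity, against 14.5% of all genes, and 2 (18.2%) for genotype, against 5.78%. Aldoa, which splits fructose 1,6-bisphosphate, had 15650.0, 17685 and 18313 normalized reads in IW, 17285, 13985 and 14359 in AW, 18496, 17805 and 19174 in IM and 15205, 14706 and 17951 in AM mice. AW mice overlapped IW mice and AM mouse 3 overlapped the IM mice, and the changes were -0.20 (SE 0.084, adjusted p = 0.131) with activity and 0.088 (SE 0.084, adjusted p = 0.587) with genotype. The activity change passed with weights on mice (adjusted p = 0.0453), and was -0.092 with equal sums (adjusted p = 0.330) and -0.078 with the slow-fibre score (adjusted p = 0.446).

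Eno3, the enolase of mature muscle, had 5669, 6657 and 6163 normalized reads in IW, 6279, 5584 and 5343 in AW, 7869, 7074 and 7672 in IM and 6083, 5802 and 6938 in AM mice. The IM mice were the 3 highest. Changes were -0.19 (SE 0.072, adjusted p = 0.104) for activity and 0.21 (SE 0.072, adjusted p = 0.110) for genotype. The activity change passed with weights on mice (adjusted p = 0.0379), and was -0.078 with equal sums (adjusted p = 0.320) and -0.072 with the slow-fibre score (adjusted p = 0.378).

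Pkm2, the pyruvate kinase gene, had 2384, 2815 and 2659 normalized reads in IW, 2921, 2338 and 2245 in AW, 3375, 3124 and 3490.4 in IM and 2766, 2507 and 3029 in AM mice. Here too the IM mice were highest and the other groups overlapped. Its changes were -0.17 (SE 0.079, adjusted p = 0.164) for activity and 0.25 (SE 0.079, adjusted p = 0.0862) for genotype, and both passed with weights on mice (adjusted p = 0.0467 and 0.0306). The activity change was -0.063 with equal sums (adjusted p = 0.481) and -0.032 with the slow-fibre score (adjusted p = 0.740).

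Pfkm, the enzyme of the committed step, had 4785, 5093 and 5281 normalized reads in IW, 4719, 4425 and 4229.7 in AW, 5548, 5330.4 and 5776 in IM and 4398, 4348 and 5432 in AM mice. All AW mice lay below all IW mice, while AM mouse 3 lay inside the IM range. The activity change of -0.21 (SE 0.069, adjusted p = 0.0588) missed the threshold, which it passed with median-of-ratios scaling and with weights on mice (adjusted p = 0.0411 and 0.0246). With equal sums it was -0.10 (adjusted p = 0.181) and with the slow-fibre score -0.12 (adjusted p = 0.221). Its genotype change was 0.11 (adjusted p = 0.389).

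Pfkl, the liver form, had 7.71, 9.59 and 9.99 normalized reads in IW, 10.8, 11.2 and 11.2 in AW, 11.3, 12.2 and 11.67 in IM and 12.4, 15.6 and 12.98 in AM mice. Levels were near the filter, yet all myostatin-reduced mice were above all wild-type mice. Pfkl changed by 0.31 (SE 0.081, adjusted p = 0.0446) with genotype, a call kept in only 2 of the 12 fits without a mouse, and by 0.23 (adjusted p = 0.0718) with activity. The genotype change was 0.25 with equal sums (adjusted p = 0.0842), 0.31 with the slow-fibre score (adjusted p = 0.0825) and 0.33 with Myh4 in the model (adjusted p = 0.0891), so that it lost its call at about the same size with both fibre measures.

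Gpi1, which turns glucose 6-phosphate into fructose 6-phosphate, had 852, 989 and 1042 normalized reads in IW, 962, 875 and 848 in AW, 1235, 1188 and 1277 in IM and 1052, 1026 and 1289 in AM mice. AM mouse 2 lay inside the IW range and the other myostatin-reduced mice above it. The genotype change was 0.34 (SE 0.071, adjusted p = 0.0168), called in 11 of the 12 fits without a mouse, and the activity change was -0.12 (adjusted p = 0.266).

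Bpgm, which makes and degrades 2,3-bisphosphoglycerate and is known for its role in red cells, had 109, 125 and 117 normalized reads in IW, 113, 92.1 and 86.1 in AW, 107, 106 and 112 in IM and 86.0, 83.7 and 103.5 in AM mice. AM mice were all below IM mice, while AW mouse 1 lay inside the IW range. The activity change was -0.27 (SE 0.074, adjusted p = 0.0319). Its genotype change of -0.097 (adjusted p = 0.479) became -0.23 (adjusted p = 0.0224) with Myh4 in the model and -0.20 (adjusted p = 0.0293) with the slow-fibre score, both past the threshold. Of 5 blood genes listed as markers, only Alas2 was found, with 2.11 to 7.19 normalized reads, and the part of blood in these changes was not tested.

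Pgam2 had 1472, 1684 and 1646 normalized reads in IW, 1699, 1423 and 1444 in AW, 1690.4, 1524 and 1695 in IM and 1482, 1599 and 1713 in AM mice. All 4 groups overlapped, with changes of -0.055 (SE 0.065, adjusted p = 0.594) and 0.052 (SE 0.065, adjusted p = 0.688) for activity and genotype, both of which turned sign with equal sums (0.053 and -0.010).

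Gapdh, uncertain for the reason given above, had 48.0, 57.5 and 50.4 normalized reads in IW, 58.3, 47.9 and 51.7 in AW, 64.6, 65.6 and 67.3 in IM and 60.5, 50.7 and 58.9 in AM mice. The IM mice were the 3 highest, and the changes were -0.099 (SE 0.066, adjusted p = 0.334) for activity and 0.22 (SE 0.066, adjusted p = 0.0709) for genotype, the latter past the threshold with weights on mice (adjusted p = 0.0365). For activity its sign turned with equal sums (log2 change 0.0071). Pgk1 ranged from 41.4 to 53.7, with a genotype change of 0.17 (adjusted p = 0.116). Tpi1, triosephosphate isomerase, ranged from 1543 to 1896 and had changes of -0.11 (adjusted p = 0.246) for activity and -0.038 (adjusted p = 0.760) for genotype, the first of which turned to 0.0022 with equal sums.

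The genes around fructose phosphate included members called in either direction. Fbp2, muscle fructose bisphosphatase, which runs the committed step backwards, lies at chr13:62938244-62959760 (minus strand). It had 51.3, 49.2 and 51.4 normalized reads in IW, 46.5, 36.9 and 34.5 in AW, 43.2, 37.8 and 36.6 in IM and 24.3, 30.4 and 31.5 in AM mice. AM mice were below all others and IW mice above all others. Fbp2 fell by 0.40 on the log2 scale both with activity (SE 0.083, adjusted p = 0.00857) and with myostatin reduction (SE 0.083, adjusted p = 0.0171), and both calls stayed in each of the 12 fits without a mouse.

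The 4 Pfkfb genes encode the enzymes that make and remove fructose 2,6-bisphosphate, the strongest activator of phosphofructokinase. Pfkfb1, the liver and muscle form, at chrX:147022772-147078421 (plus strand), had 49.96, 48.2 and 43.7 normalized reads in IW, 53.2, 60.8 and 63.2 in AW, 49.4, 49.7 and 42.2 in IM and 63.0, 61.1 and 58.5 in AM mice. All 6 active mice were above all 6 inactive mice. The activity change was 0.34 (SE 0.061, adjusted p = 0.00441), or 1.26-fold, against a genotype change of 0.019 (adjusted p = 0.891), which turned to -0.042 with equal sums.

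Pfkfb2, the heart form, had 32.3, 22.4 and 26.0 normalized reads in IW, 30.7, 49.6 and 39.8 in AW, 25.7, 30.0 and 21.8 in IM and 35.7, 46.1 and 28.6 in AM mice. AW mouse 2 and AM mouse 2 were the highest, AW mouse 1 and AM mouse 3 lay below IW mouse 1, and the activity change was 0.51 (SE 0.14, adjusted p = 0.0303).

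Pfkfb4, the testis form, had 57.9, 69.6 and 59.5 normalized reads in IW, 66.3, 52.6 and 53.1 in AW, 86.9, 86.6 and 94.0 in IM and 63.9, 62.2 and 77.7 in AM mice. IM mice were above all others. It fell with activity by 0.26 (SE 0.078, adjusted p = 0.0438) and rose with myostatin reduction by 0.38 (SE 0.078, adjusted p = 0.0164). Pfkfb3, the inducible form, had the widest spread, from 146 in AW mouse 3 to 771 in IM mouse 3, and neither its activity change of -0.63 (SE 0.23, adjusted p = 0.0840) nor its genotype change of 0.59 (SE 0.23, adjusted p = 0.154) passed the test.

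Gpd1, the cytosolic enzyme of the glycerol phosphate shuttle that moves electrons from glycolytic NADH to mitochondria, had 661, 853 and 742 normalized reads in IW, 751, 596 and 534 in AW, 999, 937 and 956 in IM and 763, 658 and 816 in AM mice. IM mice were the 3 highest. The activity change was -0.32 (SE 0.089, adjusted p = 0.0311), and the genotype change of 0.31 (SE 0.089, adjusted p = 0.0613) missed the threshold, which it passed once the slow-fibre score was added (0.19, adjusted p = 0.0411).

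Gpd2, the mitochondrial partner, had 219.6, 261 and 227 normalized reads in IW, 264, 174 and 166 in AW, 284, 277 and 289.7 in IM and 212, 184 and 223 in AM mice. AW mice 2 and 3 were the lowest and AW mouse 1 the highest of the wild-type mice. Its activity change was -0.36 (SE 0.10, adjusted p = 0.0351) and its genotype change 0.17 (adjusted p = 0.363). Gpd1l, a related dehydrogenase, ranged from 41.1 to 50.1, with changes of -0.010 (adjusted p = 0.925), which turned to 0.095 with equal sums, and 0.062 (adjusted p = 0.577) for activity and genotype.

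The second question was how myostatin-reduced mice differed from wild-type mice at either activity level. Ppp1r3c, Stbd1, Pfkfb4, Gpi1 and Pfkl rose in myostatin-reduced mice, and Fbp2 and Ugp2 fell. These 7 of 33 members, or 21.2%, passed the test, against 5.78% of all genes (3.57% higher and 2.21% lower). The median log2 change was 0.12 over the members and -0.0049 over all genes, and 26 of 33 members had a positive change. At an unadjusted p under 0.05 there were 16 members, against 22.5% of all genes. By role, 2 of 11 glycolytic enzymes rose, 1 of 6 breakdown genes rose, 1 of 8 synthesis genes rose and 1 fell, and 1 of 8 genes of fructose phosphate control and glycerol phosphate rose and 1 fell. Median changes of these lists were 0.17, 0.21, 0.017 and 0.11. The count was 4 without IW mouse 1, AW mouse 2 or IM mouse 1, 3 without AW mouse 3 and 13 without AW mouse 1. With Myh4 in the model it was 4 (12.1% against 3.57% of all genes), of which Gpi1, Pfkfb4 and Fbp2 were among the 7 and Bpgm was not. With equal sums the members were again 5 higher and 2 lower, while all genes were 2.44% higher and 6.13% lower. Stbd1, Pfkfb4 and Fbp2 were called in each of the 12 fits without a mouse.

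The third question was whether the activity difference depended on genotype. Of the members 0, and of the 7247 genes 0, passed the interaction test in limma, and at an unadjusted p under 0.05 there was 1 member against 4.10% of all genes. That member was Phka1, with a difference between the activity changes of -0.47 on the log2 scale (SE 0.21, adjusted p = 0.890). The smallest adjusted p among the members was 0.890.

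Activity was then compared within each genotype, as contrasts of the same fit to all 12 mice. Between AW and IW mice 0 members were called in limma, against 0.0276% of all genes, and 8 had an unadjusted p under 0.05, against 14.7%. Pfkfb1 came nearest, with 0.31 (SE 0.087, adjusted p = 0.123), before Gbe1 with 0.41 (adjusted p = 0.151). The count was 3 without AW mouse 1. Between AM and IM mice 6 members were called, 18.2% against 7.84% of all genes (5.31% higher and 2.53% lower), and 20 had an unadjusted p under 0.05, against 26.2%. Phka1 fell by 0.75 (SE 0.15, adjusted p = 0.0137), Phkb by 0.51 (adjusted p = 0.0357), Fbp2 by 0.44 (adjusted p = 0.0399) and Pfkfb4 by 0.39 (adjusted p = 0.0471). Pfkfb1 rose by 0.37 (adjusted p = 0.0265) and Ugp2 by 0.30 (adjusted p = 0.0188). This count of 6 was 1 without IM mouse 1 and 0 without IM mouse 2, IM mouse 3 or AM mouse 2, and none of the 6 was called in all 12 fits that left out a mouse. With the replicate block Fbp2 and Pfkfb4 kept their change and lost their call (adjusted p = 0.0525 and 0.0611). Pfkfb4 was also not called with no filter on low values (adjusted p = 0.0520). With equal sums 3 were higher and 2 lower, and Fbp2 (-0.32, adjusted p = 0.0829) and Pfkfb4 (-0.27, adjusted p = 0.0625) were not called. All genes were then 11.5% higher and 0.895% lower. Since the interaction test called 0 members, the calls in myostatin-reduced mice and the lack of calls in wild-type mice do not show that the genotypes responded differently.

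Between IM and IW mice 2 members were called, 6.06% against 2.51% of all genes (1.38% higher and 1.13% lower), and 15 had an unadjusted p under 0.05, against 17.4%. Ppp1r3c rose by 0.94 (SE 0.22, adjusted p = 0.0441), 1.91-fold, and Pfkfb4 by 0.51 (SE 0.11, adjusted p = 0.0345). The count was 0 without IW mouse 1 or 3 or without any of the IM mice and 1 without AW mouse 3, and equal sums gave 2 higher and 1 lower, with 1.02% of all genes higher and 2.48% lower. Both calls were lost with the replicate block (adjusted p = 0.0603 for Ppp1r3c and 0.0570 for Pfkfb4). Between AM and AW mice 0 members were called in limma, against 0.207% of all genes, and 8 had an unadjusted p under 0.05, against 12.3%. The nearest was Fbp2, with -0.44 (SE 0.12, adjusted p = 0.203).

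Across the 33 tested members together, the median deviation of a mouse from the gene means was 0.15 to 0.21 on the log2 scale in IM mice. It was -0.087 to 0.049 in IW mice, -0.22 to 0.056 in AW mice and -0.14 to 0.10 in AM mice. The IM mice were the only group whose range did not overlap that of another group. They were also the mice with the highest Myh4 values, 104829 to 106795, against 54013 to 96845 in the other 9 mice. As a description over 12 mice that share 4 groups, Pygm and Phka1 were higher and Ugp2 lower in the IM mice than in the other 9 mice. Outside IM mice Ugp2 did not always fall as Myh4 rose. IW mouse 2, with the most Myh4 of the IW mice (96845), had the least Ugp2 of them (896). AM mouse 3, with the most Myh4 of the AM mice (78856), had the most Ugp2 of them (1001), and AW mouse 1 the most of the AW mice (1039). AW mouse 1 held 75908 of Myh4 and AW mice 2 and 3 held 56811 and 54013, and Pygm, Phka1, Phkb and Gpd2 were higher in mouse 1 than in the other AW mice. The part of fibre make-up in these differences was not tested beyond the models with Myh4 and with the slow-fibre score.

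**Figure D5:**
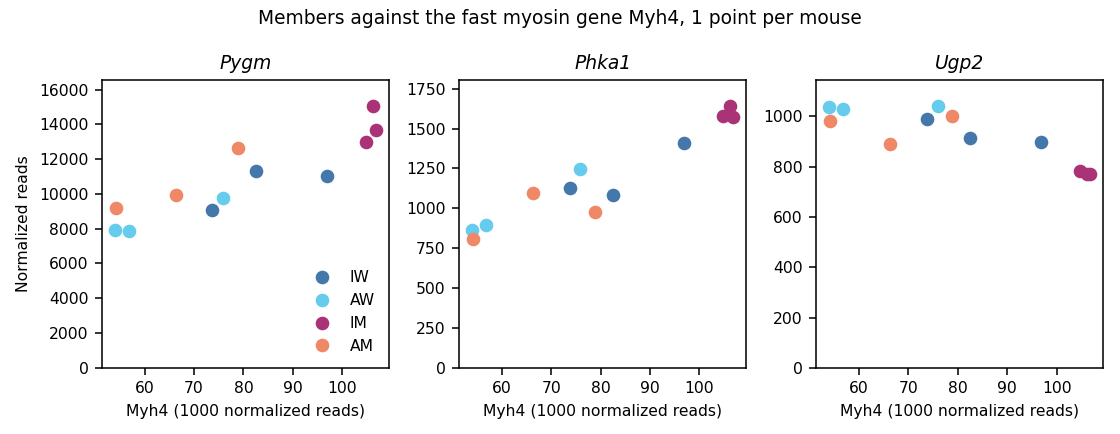
Normalized reads of Pygm, Phka1 and Ugp2 (y axes, from 0) against those of the fast myosin gene Myh4 divided by 1000 (x axes), 1 point per mouse and coloured by group, with genes chosen after their values were seen. The 3 IM mice lie together at the right, above the others for Pygm and Phka1 and below them for Ugp2.

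Promoter sequences were available for 38 of the 39 members, from RefSeq on the later build GRCm38.p6, with no entry for Gpd1. The 250 bases before the first start listed are shown for 4 called members that differ in direction, Phka1 and Fbp2, which fell with activity, Ugp2, which rose, and Ppp1r3c, which rose with myostatin reduction. Each is written 5′ to 3′ on the minus strand. Capitals mark CACGTG, the palindromic E-box, in Fbp2 (chr13:62858401-62858650), both CACGTG and a further CACGT, which is ACGTG on the other strand, in Ppp1r3c (chr19:36736605-36736854), ACGTG, the core of the hypoxia element, in Ugp2 (chr11:21371268-21371517), and the MEF2-type element, CTA and TAG with 4 bases of any kind between them, in Phka1 (chrX:102644247-102644496).
Phka1: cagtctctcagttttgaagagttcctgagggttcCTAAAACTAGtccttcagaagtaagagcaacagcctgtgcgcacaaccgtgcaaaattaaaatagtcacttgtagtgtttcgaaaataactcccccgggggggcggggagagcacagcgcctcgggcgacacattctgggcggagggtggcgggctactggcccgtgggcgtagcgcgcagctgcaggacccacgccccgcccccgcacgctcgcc
Fbp2: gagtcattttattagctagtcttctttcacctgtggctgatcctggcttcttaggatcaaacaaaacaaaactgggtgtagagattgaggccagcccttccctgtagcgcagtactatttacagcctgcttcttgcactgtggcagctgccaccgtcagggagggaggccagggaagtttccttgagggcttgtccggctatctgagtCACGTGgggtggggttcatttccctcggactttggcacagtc
Ugp2: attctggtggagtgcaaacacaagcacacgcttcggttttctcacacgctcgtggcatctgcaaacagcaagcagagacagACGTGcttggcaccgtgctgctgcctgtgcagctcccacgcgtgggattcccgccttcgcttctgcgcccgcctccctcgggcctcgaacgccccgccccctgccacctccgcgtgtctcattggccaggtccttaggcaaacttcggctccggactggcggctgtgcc
Ppp1r3c: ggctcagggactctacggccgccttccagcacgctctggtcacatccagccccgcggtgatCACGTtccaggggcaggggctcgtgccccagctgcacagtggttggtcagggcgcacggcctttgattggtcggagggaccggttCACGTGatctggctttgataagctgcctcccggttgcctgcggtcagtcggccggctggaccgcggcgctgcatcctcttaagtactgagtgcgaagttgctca

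Both strands were searched over the same 250 bases of 32851 promoters. A gene with several starts had a promoter for each, and all of them were counted, 53 for the 38 members. CACGTG, which also holds ACGTG and is a case of CANNTG, was found in 15.1% of member promoters (8 of 53, in 8 genes) and 6.02% of all promoters. ACGTG was found in 39.6% (21 of 53, in 17 genes) and 16.6%. For the MEF2-type element the shares were 3.77% (2 of 53, in Phka1 and Ppp1r3a) and 3.20%. CANNTG occurred in 75.5% of member promoters against 66.2%, CATTCC, the MCAT element, in 9.43% against 12.6%, and TNAAGGTCA, the ERR-type element, in 0 of 53 against 1.14%. Called members that hold CACGTG moved in different directions, Pfkfb2 higher and Fbp2 and Gaa lower with activity, and Ppp1r3c higher with myostatin reduction. These matches are a description of letters and not of binding.

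Of 21 tested genes of the same pathways outside the list, 5 (23.8%) were called for activity, against 14.5% of all genes. Ldhb, the lactate dehydrogenase subunit of oxidative muscle, rose by 2.08 (SE 0.35, adjusted p = 0.00284). Lower in active mice were Prkag3, a subunit of AMP-activated kinase in glycolytic fibres, with -0.46 (adjusted p = 0.0285), Mlxip, a glucose-sensing transcription factor, with -0.33 (adjusted p = 0.0164), Pgm2l1, glucose 1,6-bisphosphate synthase, with -0.30 (adjusted p = 0.0495), and Gsk3b, a kinase that inhibits glycogen synthase, with -0.25 (adjusted p = 0.0169). For genotype 2 of 21 (9.52%) were called, against 5.78% of all genes, Mlxip with 0.35 (adjusted p = 0.0250) and Ppp1cb, a catalytic subunit of protein phosphatase 1, with -0.19 (adjusted p = 0.0276).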

How the data were processed

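RNA of the triceps brachii muscle of 12 mice, 3 per group, was selected for poly(A) tails and sequenced by the authors on the Genome Analyzer IIx of Illumina, with 65-base reads from a single end. Per the labels and the study's methods, reads were mapped with CASAVA (version not given in the sources used here) to mm9 and counted in RefSeq exons. The deposited values are a signal: read counts per gene that the authors scaled to an equal trimmed mean over genes, without the highest and lowest 5th percentiles. Use of strand and the handling of reads with several matches were not given in the sources used here. Low values stepped by 1 read, which gave the depth, but only 68.1% to 70.7% of values between 20 and 50 came out whole (within 0.006), so a test of read counts was not run. Floors of 3 reads cover counting error only.

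Groups came from the sample titles. Tests used limma (version 3.58.1, R version 4.3.3) and were run on log2(value + 1), which understates changes of low genes, in genes with a mean of at least 10, with a mean per group fitted to all 12 mice and a trended variance. P-values were two-sided and Benjamini-Hochberg adjusted over all genes tested, in each of 7 contrasts. The fit was checked on simulated data. Values of each mouse were written out for members called in any contrast and for 8 muscle forms named in the rule (Gapdh, Aldoa, Eno3, Pkm2, Pygm, Gys1, Pfkm and Pgam2), and fitted changes also for members with an unadjusted p under 0.05. The members, lists and naming rule were chosen with earlier results of these data known. Alternatives were a pseudocount of 0.1, no filter, median-of-ratios and equal-sum scaling, weights on mice, a replicate block, fibre covariates, fits of 2 groups and fits without each mouse. Positions and lengths came from GENCODE vM1 (NCBIM37), promoters from RefSeq (GRCm38.p6), and 65-base windows were matched exactly to both strands of NCBIM37.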

Additional observations from a re-analysis of the deposited data

How the results depend on the processing

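Of 28 member changes called in any contrast, 28 stayed called with a pseudocount of 0.1, with median-of-ratios scaling and with weights on mice, 27 with no filter on low values, 22 with the replicate block, 19 with equal sums, 12 with a slow-fibre score as covariate and 3 with Myh4 as covariate, the last chosen after seeing the data. Their direction stayed the same except with Myh4, where it stayed in 20. The cause was not tested. The count for activity, 13 members, became 23 with weights on mice (69.7% against 24.0% of all genes), in which AW mouse 1 had the lowest weight (0.479). It was 3 with the slow-fibre score (9.09% against 5.53%) and 0 with Myh4 (against 0.0414%), and ran from 5 to 20 over the fits without a mouse. The count for genotype, 7, became 12 with weights (36.4% against 8.39%) and 9 with the slow-fibre score (27.3% against 4.26%). It was 4 with Myh4 (12.1% against 3.57%) and 3 to 13 without a mouse. Between AW and IW mice the count of 0 became 6 with weights (18.2% against 5.73%), and 0 to 3 without a mouse. Between AM and IM mice the count of 6 became 11 with weights (33.3% against 12.8%) and 2 with the slow-fibre score (6.06% against 2.58%). It was 0 with Myh4 (against 0.0276%) and 0 to 9 without a mouse. Between IM and IW mice the count of 2 became 6 with weights (18.2% against 4.61%) and 0 with the replicate block (against 1.35%). It was 1 with the slow-fibre score (3.03% against 1.59%), 0 with Myh4 (against 0.911%) and 0 to 3 without a mouse. The interaction and the difference between AM and AW mice gave 0 members in limma under every alternative. With only the 2 groups compared in the fit, 8 members were called between AM and IM mice (24.2% against 7.36% of all genes), 2 higher and 6 lower. Between IM and IW mice 3 were called (9.09% against 3.07%), 2 higher and 1 lower, and between AW and IW mice 0.

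Over all 33 tested members, the sign turned in 20 activity and 7 genotype changes with Myh4, in 5 and 4 with equal sums and in 4 and 5 with the slow-fibre score, none past the threshold after turning. Values follow for the changes that the rule for named genes picked, and not for the others. With Myh4 in the model, log2 changes with activity turned to -0.16 for Pfkfb2, 0.14 for Gpd2, 0.086 for Bpgm, 0.093 for Phkb, 0.11 for Pfkfb4, 0.13 for Gpd1, 0.063 for Pygm, 0.17 for Gapdh, 0.10 for Aldoa, 0.093 for Eno3, 0.19 for Pkm2, 0.010 for Pfkm and 0.16 for Pgam2. Genotype changes turned to -0.027 for Aldoa and -0.028 for Pgam2, and the change of Pfkfb4 between AM and IM mice to 0.050. With equal sums the activity changes of Gapdh and Pgam2 turned to 0.0071 and 0.053 and the genotype change of Pgam2 to -0.010. With the slow-fibre score the activity changes of Gapdh and Pgam2 turned to 0.0011 and 0.042 and the genotype changes of Aldoa and Pgam2 to -0.0011 and -0.018.

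The paper states that sampled mice of both genotypes were matched in their running, and it does not name the matched mice. Replicate numbers recur in the groups, but each number is a different mouse in each group, and deviations of same-numbered mice correlated between -0.60 and 0.48 in 18 pairs, over 0.1 in 9. The replicate block left 13 members called for activity (39.4% against 14.9% of all genes), 12 of them among the 13. It left 6 for genotype (18.2% against 5.02%) and 5 between AM and IM mice (15.2% against 8.67%). Pfkfb4 lost its activity call (adjusted p = 0.0596), Ugp2 its genotype call (0.0567), Pfkfb4 and Fbp2 their calls between AM and IM mice (0.0611 and 0.0525), and Pfkfb4 and Ppp1r3c theirs between IM and IW mice (0.0570 and 0.0603). The log2 changes of these genes were the same with and without the block.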
